A study of Mus musculus with 20 samples.

Results

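The genes described here are 10 genes of the MHC class I antigen presentation pathway, chosen by symbol. They are the heavy chain genes H2-K1 and H2-D1, the light chain gene B2m, the peptide loading genes Tap1, Tap2 and Tapbp, the regulator gene Nlrc5, and the immunoproteasome genes Psmb8, Psmb9 and Psmb10. All 10 were found among the 24421 genes of the count table, and all 10 were among the 12465 genes that had enough counts to be tested.

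MHC class I molecules carry short peptides from inside the cell to its surface, where CD8+ T cells read them. The proteasome cuts proteins into these peptides, and in immune cells its constitutive catalytic subunits are replaced by those of the immunoproteasome. The TAP transporter, built from the products of Tap1 and Tap2, moves peptides into the endoplasmic reticulum, where tapasin (Tapbp) helps to load them onto the heavy chain and beta-2 microglobulin (B2m). Nlrc5 is a transactivator of class I genes, and interferons induce much of the pathway. Dendritic cells can also place peptides from internalised antigen, including antigen in immune complexes, onto class I molecules, a process known as cross-presentation.

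Bulk RNA-seq was performed on bone marrow-derived dendritic cells (BMDCs) of 5 wild-type C57BL/6 mice, labelled A to E, grown from bone marrow for 8 days in medium holding 40 ng/mL of GM-CSF. Each mouse gave 1 library in each of 4 groups. DMSO Ova cells received DMSO (5% by the labels) and ovalbumin, and DMSO IC cells received DMSO and ovalbumin in IgG immune complexes (IC). iBET Ova and iBET IC cells received I-BET151 (iBET) at 3.3 μM, a small molecule that blocks the acetyl-lysine binding pocket of BET proteins, together with ovalbumin or IC. Stimulation lasted 4 hours in all groups. The labels describe iBET and the stimulus as given together, whereas the methods place iBET shortly before. The methods describe iBET as diluted from a stock in DMSO and do not repeat the 5% of the labels for these cultures. Whether both treatments held the same amount of DMSO is not stated, so an effect of iBET and of unequal solvent cannot be told apart. The methods speak of lysis in culture and the labels of sorting. The 4 libraries of a mouse share its bone marrow.

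Total counts per library ranged from 16447491 to 29245150, with a median of 21764663. The least covered class I gene, Psmb9, still had 304 counts in its lowest library. The dendritic cell genes Itgax and Cd74 had mean levels of 1962 and 2661 CPM (read counts scaled to the size of the library) in the DMSO Ova group, whereas Flt3, a receptor of conventional dendritic cells, had 3.03 CPM there and 0.242 CPM with iBET Ova. Summed over 3 B cell markers and 4 T and NK cell markers the level stayed at or below 0.408 and 0.801 CPM in every library. Macrophage markers were well expressed, as is usual for GM-CSF cultures, and summed over 5 genes they ranged from 1254 to 1798 CPM with DMSO Ova and from 869 to 1223 CPM with iBET Ova. With IC these ranges overlapped, 1368 to 1910 CPM with DMSO and 916 to 1417 CPM with iBET. Most of the difference lay in Csf1r, the M-CSF receptor gene (mean 1032 and 582 CPM with DMSO Ova and iBET Ova). C1qa had 19.7 and 12.4 CPM, and differences were small in proportion for Adgre1 (163 and 146 CPM), Cd68 (218 and 192 CPM) and Mertk (78.8 and 71.8 CPM). Of the dendritic cell markers, Ccr7 (461 and 331 CPM), H2-Aa (446 and 396 CPM) and Dpp4 (17.0 and 6.46 CPM) had lower means with iBET Ova. Itgax (1962 and 2108 CPM) and Cd74 (2661 and 3169 CPM) had higher means. In bulk RNA, fewer cells of a type and less RNA per cell cannot be told apart, and the part of these markers in the class I results was not tested.

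The 10 genes were placed on the genome by GENCODE M21 (GRCm38, the same assembly as mm10). Psmb9 (chr17:34181987-34187764), Tap1 (chr17:34187553-34197225), Psmb8 (chr17:34197721-34201454) and Tap2 (chr17:34203527-34216321) lie side by side within 34335 bp of chromosome 17. Tapbp (chr17:33915899-33929292), H2-K1 (chr17:33996017-34000347) and H2-D1 (chr17:35262730-35267499) lie on the same chromosome. Nlrc5 (chr8:94434356-94527272) and Psmb10 (chr8:105935735-105938444) lie on chromosome 8, and B2m (chr2:122147686-122153083) on chromosome 2. Psmb9 and Tap1 are read in opposite directions and their exons overlap by 212 bp. Their RefSeq start sites are 226 bp apart, and their promoter windows share 275 bp.

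Promoter windows of 300 bases, from 250 before to 50 after the start site, were found for 8 of the 10 genes in RefSeq (GRCm38.p6), with none for Tap2 and Nlrc5. They were searched on both strands for 5 motifs, which were TGACG (core of the X2 box), CCAAT (Y box), GAAA and GAAA with 2 bases between (ISRE), TTCNNNGAA (GAS), and GGG and TTCC with 3 bases between (NF-kB). The windows of the 3 genes of the class I molecule itself and of Tap1 are shown, since these heavy chain genes and Tap1 moved in opposite directions with iBET, with motif matches in capitals. They are chr17:34000298-34000597 (minus strand), chr17:35262844-35263143 (plus strand), chr2:122147437-122147736 (plus strand) and chr17:34187306-34187605 (plus strand).
H2-K1: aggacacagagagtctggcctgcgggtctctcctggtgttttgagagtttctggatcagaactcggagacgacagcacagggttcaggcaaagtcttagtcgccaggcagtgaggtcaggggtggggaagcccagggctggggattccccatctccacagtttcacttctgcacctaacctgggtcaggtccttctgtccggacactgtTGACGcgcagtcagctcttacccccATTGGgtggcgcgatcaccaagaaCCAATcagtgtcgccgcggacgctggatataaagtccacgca
H2-D1: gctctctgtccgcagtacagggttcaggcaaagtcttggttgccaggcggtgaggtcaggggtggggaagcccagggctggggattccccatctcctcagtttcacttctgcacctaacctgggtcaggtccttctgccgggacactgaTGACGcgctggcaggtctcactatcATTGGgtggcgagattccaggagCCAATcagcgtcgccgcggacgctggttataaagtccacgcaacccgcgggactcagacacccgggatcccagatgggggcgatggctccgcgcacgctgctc
B2m: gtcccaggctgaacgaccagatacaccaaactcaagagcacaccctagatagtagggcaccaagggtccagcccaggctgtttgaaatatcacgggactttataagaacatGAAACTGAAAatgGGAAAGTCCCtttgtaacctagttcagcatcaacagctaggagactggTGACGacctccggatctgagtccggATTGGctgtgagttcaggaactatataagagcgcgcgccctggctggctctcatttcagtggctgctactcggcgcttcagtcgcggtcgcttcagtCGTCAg
Tap1: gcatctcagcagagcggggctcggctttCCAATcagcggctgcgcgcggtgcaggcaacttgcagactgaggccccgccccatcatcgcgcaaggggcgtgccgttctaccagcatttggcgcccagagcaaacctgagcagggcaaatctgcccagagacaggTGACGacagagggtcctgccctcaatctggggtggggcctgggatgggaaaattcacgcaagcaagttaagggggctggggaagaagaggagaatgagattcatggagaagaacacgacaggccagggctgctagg
Tap1 and Psmb9 share most of their windows, and their TGACG and CCAAT matches are the same sites seen from either side, so the 8 windows are not separate. TGACG occurred in 5 of the 8 windows and in 20.8% of all 32851 promoter windows, and CCAAT in 6 of 8 and in 37.4%. ISRE, GAS and NF-kB matches occurred in 1 window each, against 3.44%, 8.30% and 5.56% of all windows. The ISRE and NF-kB matches were in the B2m window and the GAS match in the Psmb8 window. These patterns are strict, and stretches close to a pattern are not marked. The H2-K1 and H2-D1 windows both hold ggggattcccc, close to the NF-kB pattern, and gtttcacttct, close to the ISRE pattern on the other strand. A window without a match can thus still hold a site for the same factors in other letters. The counts of matches do not show that the heavy chain promoters lack NF-kB or ISRE sites. In H2-K1, H2-D1 and B2m, TGACG was followed by ATTGG (the Y box on the other strand) at the same distance, with 20 bases between. This arrangement, TGACGNNNNNNNNNNNNNNNNNNNNATTGG, was picked after the matches were seen and is held by 31 of the 32851 windows (0.0944%). The Tap1 window holds TGACG and CCAAT without that spacing. A match describes the letters and not a site in use.

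Levels of different genes were compared per kb of exon. The length was the union of all annotated exons of a gene (3.38 kb for Psmb8, 3.66 kb for Psmb9 and 0.860 kb for B2m). This can exceed the length of the transcripts expressed, so the order of genes depends on the annotation. In the DMSO Ova group B2m had the highest level, 1219 ± 125 CPM per kb (SD, n = 5). It was followed by H2-D1 with 366 ± 49.6, H2-K1 with 219 ± 18.2 and Tapbp with 107 ± 8.77 CPM per kb (SD, n = 5 each). These 4 levels were each apart from the next by more than their SDs. Psmb8 (48.9 ± 7.96 CPM per kb) and Psmb10 (39.5 ± 4.93 CPM per kb) lay within their spread of each other. Tap2 had 22.4 ± 1.08 CPM per kb and Tap1 17.6 ± 3.53 CPM per kb. Psmb9 (8.21 ± 1.58 CPM per kb) and Nlrc5 (4.53 ± 0.723 CPM per kb) were lowest. The molecule itself was thus represented by far more RNA per kb than its transporter or its regulator. In the iBET Ova group the first 4 genes kept this order, with 1345 ± 166 CPM per kb for B2m, 477 ± 63.7 for H2-D1, 296 ± 24.2 for H2-K1 and 104 ± 14.0 for Tapbp. Psmb10 fell to 18.9 ± 3.83 CPM per kb, away from Psmb8 at 35.5 ± 5.42 CPM per kb.

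**Figure D1:**
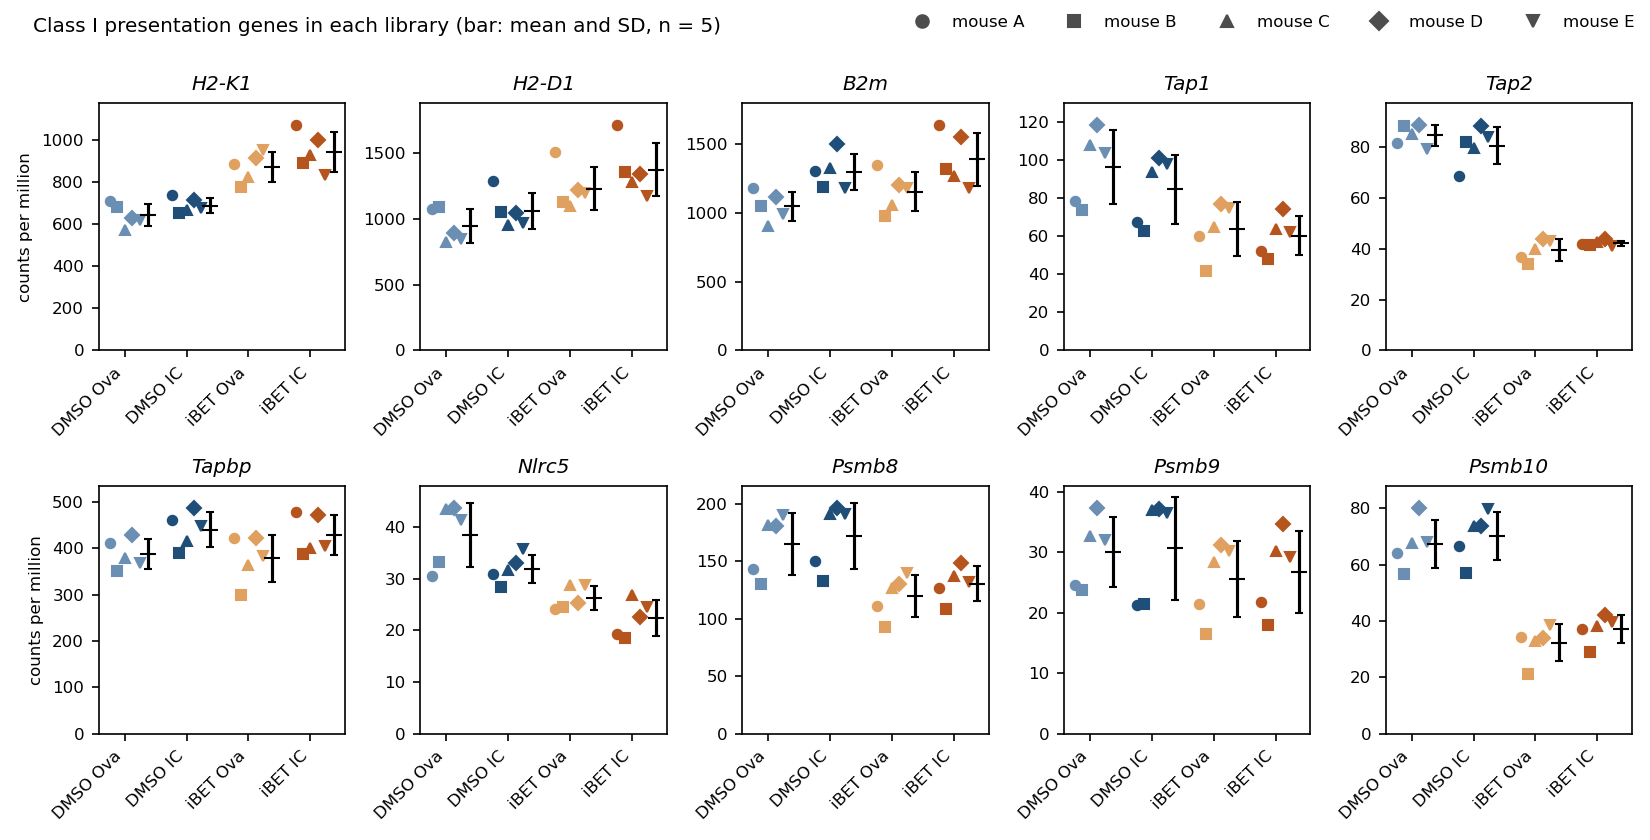
Normalised CPM of the 10 class I presentation genes in each of 20 libraries, on linear axes from 0, where points are mice A to E (by shape), colours are the 4 groups, and the black bar is the mean with SD (n = 5). The iBET points of Tap2 and Psmb10 lie wholly below the DMSO points, whereas those of H2-K1 lie above the DMSO points of the same stimulus.

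The first comparison asks what iBET did to these genes under each stimulus. With Ova, 7 of the 10 genes passed the test of edgeR at an adjusted p of 0.05, of which 2 rose (H2-K1 and H2-D1) and 5 fell (Tap1, Tap2, Nlrc5, Psmb8 and Psmb10). B2m, Tapbp and Psmb9 did not pass. With IC the same 7 genes passed in the same directions. In the background of all tested genes, 56.6% passed with Ova (27.7% higher and 28.9% lower) and 56.1% with IC (27.1% higher and 29.0% lower). A share of 7 in 10 is near that background and is not a result about these genes. The median log2 fold change over the 10 genes was -0.35 with Ova and -0.30 with IC, against -0.0029 and -0.0054 over all genes tested. Both heavy chains rose, whereas both transporter chains, the regulator and 2 of the 3 immunoproteasome subunits fell.

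H2-K1 encodes the K heavy chain, which holds the peptide. With Ova it had 709.7, 680.4, 573, 628 and 621 CPM with DMSO in mice A to E, and 885, 775, 821, 915 and 951 CPM with iBET. With IC it had 736, 650.4, 667, 712 and 675 CPM with DMSO and 1069, 888, 926, 999.7 and 831 CPM with iBET. The lowest iBET library lay above the highest DMSO library under either stimulus, and mouse B showed the smallest difference with Ova. The log2 fold change of H2-K1 with iBET was 0.44 (SE 0.0773, adjusted p = 7.72e-05) with Ova and 0.45 (SE 0.0773, adjusted p = 4.96e-05) with IC by edgeR's quasi-likelihood test, a rise of 35.3% and 37.0%.

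H2-D1 encodes the D heavy chain of the same molecule family. With Ova its levels in mice A to E were 1075, 1089, 823, 889.9 and 845 CPM with DMSO and 1509, 1125, 1096, 1217 and 1200.1 CPM with iBET. With IC they were 1292, 1052, 953, 1045 and 971 CPM with DMSO and 1712, 1354, 1283, 1341 and 1178 CPM with iBET. Mouse A was the highest iBET library under either stimulus. The Ova groups did not overlap, by a narrow margin, and mouse B differed least, whereas the IC groups overlapped although all 5 mice were higher with iBET. By edgeR, H2-D1 rose with a log2 fold change of 0.38 (SE 0.116, adjusted p = 0.00888) with Ova and 0.37 (SE 0.116, adjusted p = 0.0106) with IC. For H2-D1, 1.35% of all 150-base stretches of its transcripts also occur in H2-Q1, and how such reads were counted is not given in the sources used here. H2-K1 shares no such stretch with another gene. In mice A and B alone, neither heavy chain passed with Ova (H2-K1 0.25, adjusted p = 0.118, and H2-D1 0.28, adjusted p = 0.2, edgeR), and H2-D1 did not with IC (adjusted p = 0.0764).

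B2m encodes the light chain, which every class I molecule needs. It had 1179.8, 1049, 904, 1119 and 991 CPM in mice A to E with DMSO and Ova, and 1353, 981, 1059, 1206 and 1185 CPM with iBET and Ova. With IC it had 1308, 1189, 1326, 1506 and 1179.9 CPM with DMSO and 1639, 1319.9, 1271, 1551 and 1186 CPM with iBET. The groups overlapped under either stimulus, and in Ova mouse B was lower and the other mice higher with iBET. The log2 fold change of B2m with iBET was 0.14 with Ova (95% interval -0.08 to 0.36, adjusted p = 0.261) and 0.10 with IC (95% interval -0.12 to 0.32, adjusted p = 0.443) by edgeR. Both intervals ended below the fold change fitted for either heavy chain under the same stimulus, but they overlapped the heavy chain intervals. These were 0.27 to 0.60 in Ova and 0.29 to 0.62 in IC for H2-K1, and 0.14 to 0.62 and 0.13 to 0.61 for H2-D1. Whether B2m differed from the heavy chains was not tested. With surrogate variables in the fit, B2m passed in Ova (0.20, edgeR adjusted p = 0.00235) and 9 of the 10 genes were called, against 68.5% of all genes in that fit.

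Tap1 encodes one chain of the peptide transporter. With Ova it had 78.7, 73.6, 108, 118 and 104 CPM with DMSO in mice A to E and 60.1, 42.0, 64.7, 76.8 and 75.0 CPM with iBET. With IC it had 67.2, 62.8, 93.9, 101 and 98.0 CPM with DMSO and 52.4, 48.3, 64.0, 74.5 and 62.1 CPM with iBET. Every mouse was lower with iBET, but mice A and B were low with DMSO too, so the groups overlapped. Tap1 fell with a log2 fold change of -0.60 (SE 0.177, adjusted p = 0.00719) with Ova and -0.49 (SE 0.177, adjusted p = 0.0237) with IC by edgeR. Without mouse C it was -0.54 with Ova (edgeR adjusted p = 0.0509), while under IC it was -0.46 (edgeR adjusted p = 0.0933), and without mouse E it was -0.44 with IC (edgeR adjusted p = 0.0941). In mice A and B alone Tap1 did not pass with IC either (-0.35, edgeR adjusted p = 0.0889).

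Tap2 encodes the other chain of the transporter and, with Psmb10, had the largest fitted changes of the 10 genes. The order of these 2 genes was within the SE and turned in some alternatives. With Ova its levels in mice A to E were 81.8, 88.5, 85.0, 88.6 and 79.4 CPM with DMSO and 36.7, 33.9, 40.1, 43.7 and 43.1 CPM with iBET. With IC they were 68.8, 82.2, 79.9, 88.6 and 83.9 CPM with DMSO and 41.8, 41.4, 42.6, 43.8 and 41.2 CPM with iBET. All iBET libraries lay below all DMSO libraries, and the 5 iBET IC libraries lay close together. With iBET the log2 fold change of Tap2 was -1.10 (SE 0.0723, adjusted p = 1.83e-10) with Ova and -0.94 (SE 0.0721, adjusted p = 1.52e-09) with IC by edgeR, so its RNA fell by 53.3% with Ova and decreased by 47.7% with IC. Of the exon bases of Tap2, 14.1% overlap the antisense gene Gm15821 and 4.36% Gm20496, and the strand setting of the counting is not given in the sources used here.

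Tapbp encodes tapasin, which bridges the transporter and the empty class I molecule. Its levels ranged from 350.5 to 428 CPM with DMSO and Ova and from 299.7 to 423 CPM with iBET and Ova, and the groups overlapped over most of their range. The log2 fold change of Tapbp with iBET was -0.04 with Ova (95% interval -0.23 to 0.16, adjusted p = 0.764) and -0.04 with IC (95% interval -0.23 to 0.16, adjusted p = 0.756) by edgeR. The intervals leave out a change as large as that fitted for Tap1 or Tap2. They overlapped the wide intervals of Tap1 (-0.97 to -0.23 in Ova and -0.86 to -0.12 in IC), and the difference between these genes was not tested. For Tapbp, 24.9% of exon bases overlap the antisense gene Gm19412, the largest such share among the 10 genes. Exons of Zbtb22 overlap 4.11% of its exon bases on the same strand, the only same-strand overlap among the 10 genes.

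Nlrc5 encodes the transactivator that works on class I promoters. With Ova it had 30.4, 33.3, 43.4, 43.6 and 41.4 CPM with DMSO in mice A to E and 24.1, 24.5, 28.8, 25.2 and 28.8 CPM with iBET. With IC it had 30.9, 28.4, 31.6, 33.0 and 35.7 CPM with DMSO and 19.3, 18.4, 26.9, 22.6 and 24.5 CPM with iBET. No iBET library reached the lowest DMSO library of the same stimulus. Nlrc5 fell with a log2 fold change of -0.55 (SE 0.113, adjusted p = 0.000356) with Ova and -0.52 (SE 0.114, adjusted p = 0.000655) with IC by edgeR. The RNA of the class I transactivator thus fell while that of both heavy chains rose in the same libraries.

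**Figure D2:**
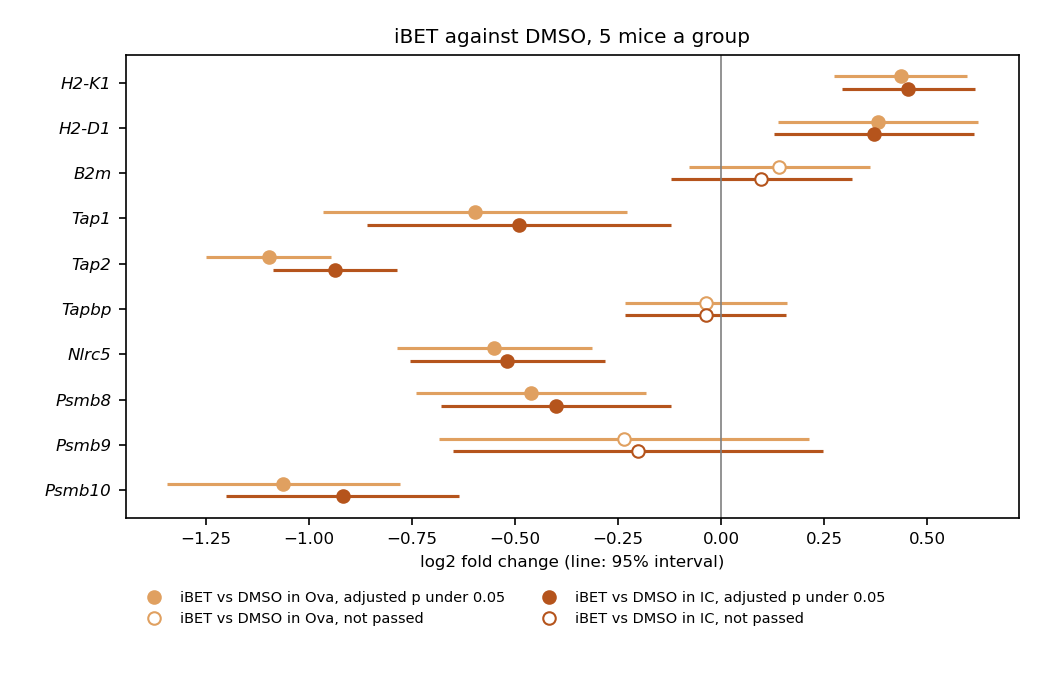
Log2 fold change of each class I presentation gene with iBET against DMSO, in Ova (light) and in IC (dark), with 95% intervals from edgeR, 5 mice a group and filled points for an adjusted p under 0.05. H2-K1 and H2-D1 lie right of 0, Tap1, Tap2, Nlrc5, Psmb8 and Psmb10 lie left of 0, and the intervals of B2m, Tapbp and Psmb9 include 0.

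Psmb10 encodes the immunoproteasome subunit MECL-1. With Ova it had 64.0, 56.7, 67.7, 79.9 and 68.0 CPM with DMSO in mice A to E and 34.2, 21.2, 33.0, 33.9 and 38.7 CPM with iBET. With IC it had 66.7, 57.1, 73.6, 73.6 and 79.7 CPM with DMSO and 37.0, 28.9, 38.2, 42.1 and 39.5 CPM with iBET. The groups did not overlap under either stimulus, and mouse B had the lowest level in all 4 groups. Its log2 fold change was -1.06 (SE 0.136, adjusted p = 1.59e-06) with Ova and -0.92 (SE 0.135, adjusted p = 8.98e-06) with IC by edgeR.

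Psmb8 encodes the subunit LMP7. With Ova it had 143, 130.0, 182, 181 and 190.4 CPM with DMSO in mice A to E and 111, 92.9, 127, 130.0 and 139.8 CPM with iBET. With IC it had 151, 133, 192, 196 and 191 CPM with DMSO and 127, 108, 138, 149 and 132 CPM with iBET. All 5 mice were lower with iBET, although the groups overlapped because mice A and B were low throughout. Psmb8 fell with a log2 fold change of -0.46 (SE 0.134, adjusted p = 0.00623) with Ova and -0.40 (SE 0.134, adjusted p = 0.0153) with IC by edgeR. With IC the call was lost without mouse C (-0.37, edgeR adjusted p = 0.0728), without mouse E (-0.36, edgeR adjusted p = 0.0587) and in mice A and B alone (-0.25, edgeR adjusted p = 0.129). Of the exon bases of Psmb8, 14.7% overlap the antisense gene Gm20496.

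Psmb9 encodes the subunit LMP2. Its levels with Ova were 24.5, 23.7, 32.7, 37.2 and 32.1 CPM with DMSO in mice A to E and 21.4, 16.5, 28.4, 31.2 and 30.3 CPM with iBET. With IC they were 21.2, 21.4, 36.9, 37.1 and 36.5 CPM with DMSO and 21.7, 17.9, 30.2, 34.6 and 29.1 CPM with iBET. Mice A and B lay below the other mice in all 4 groups, and the iBET and DMSO groups overlapped widely. The log2 fold change of Psmb9 with iBET was -0.23 with Ova (95% interval -0.68 to 0.21, adjusted p = 0.367) and -0.20 with IC (95% interval -0.65 to 0.25, adjusted p = 0.442) by edgeR. With the mouse as a block, Psmb9 was lower with iBET in Ova (-0.25, edgeR adjusted p = 0.00279) and in IC (-0.19, edgeR adjusted p = 0.0142), which brought the number of genes that fell to 6 under each stimulus. In the blocked fit 35.2% of all genes were lower in Ova and 35.4% in IC.

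Each immunoproteasome subunit replaces 1 constitutive subunit, which set the pairs compared. The log2 ratio of such a pair within a library hardly depends on how libraries were scaled, since both genes share the scaling. The ratio of Psmb10 to Psmb7 was -0.15, -0.19, -0.08, 0.29 and -0.10 in mice A to E with DMSO and Ova, and -1.04, -1.56, -1.01, -0.89 and -0.87 with iBET and Ova. With IC it was -0.30, -0.46, -0.28, -0.22 and -0.12 with DMSO and -1.15, -1.38, -0.97, -0.92 and -0.88 with iBET. Neither pair of groups overlapped. The ratio Psmb10/Psmb7 differed by -1.03 with Ova and by -0.78 with IC (exact 2-sided permutation test, n = 5 against 5, p = 0.00794 each, the smallest that this design allows, adjusted p = 0.0476 over 12 tests). For Psmb8 to Psmb5 the difference with iBET was -0.34 with Ova (exact permutation adjusted p = 0.324) and -0.15 with IC (exact permutation adjusted p = 0.614). For Psmb9 to Psmb6 it was -0.32 with Ova (exact permutation adjusted p = 0.508) and -0.01 with IC (exact permutation adjusted p = 0.976). With Ova both ratios were lower with iBET in 5 of 5 mice. For IC against Ova under DMSO, all 3 ratios were lower in 5 of 5 mice. The differences were -0.20 for Psmb8/Psmb5, -0.49 for Psmb9/Psmb6 and -0.23 for Psmb10/Psmb7 (exact permutation adjusted p = 0.614, 0.324 and 0.0952). In that comparison the constitutive genes Psmb5, Psmb6 and Psmb7 had fitted log2 fold changes of 0.25, 0.49 and 0.29. Those of Psmb8, Psmb9 and Psmb10 were 0.06, 0.03 and 0.06, so the fitted immunoproteasome genes did not fall. Under iBET, Psmb9/Psmb6 was also lower with IC in 5 of 5 mice (-0.19, exact permutation adjusted p = 0.614). The permutation over libraries does not use the mouse. Of the constitutive partners, Psmb5 fell by 0.24 and Psmb7 fell by 0.13 with iBET in IC on the log2 scale (edgeR adjusted p = 0.0204 and 0.0469), and none of the 3 passed with Ova. Exact sign flips over the 5 mice allow no p under 0.0625. Their adjusted p was 0.0938 for Psmb10/Psmb7 with iBET under either stimulus. It was the same wherever all 5 mice moved the same way. These were both other ratios with iBET in Ova, all 3 ratios with IC under DMSO, and Psmb9/Psmb6 with IC under iBET.

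**Figure D3:**
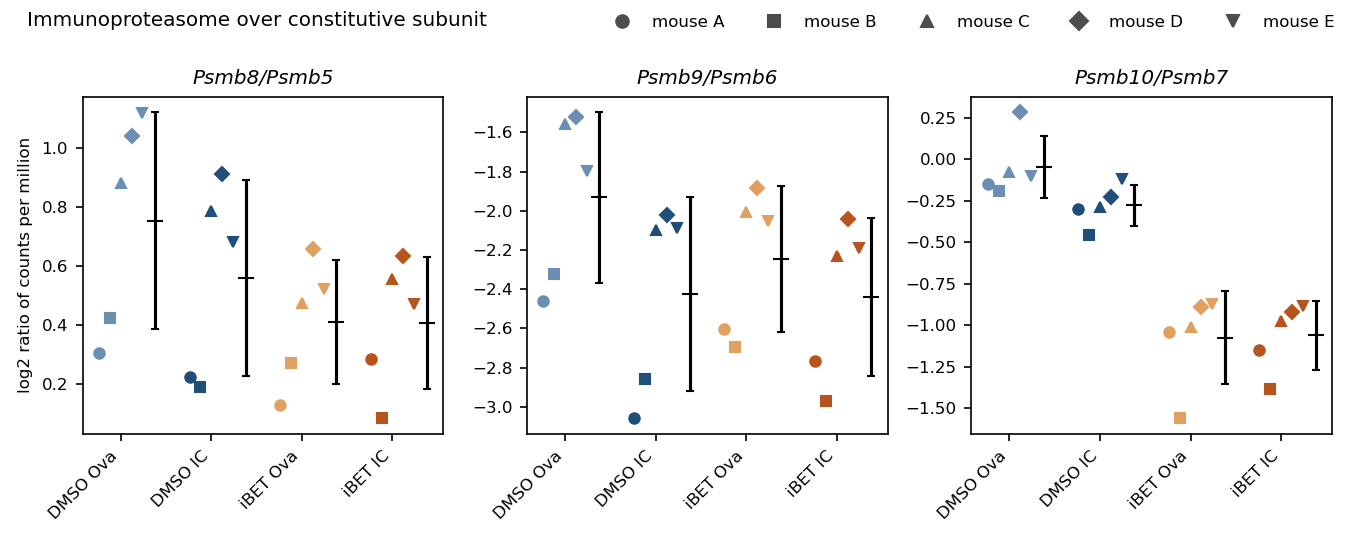
Log2 ratio of the CPM of an immunoproteasome gene to that of the constitutive subunit it replaces, per library (points, mice A to E by shape) with mean and SD (n = 5), on axes that differ between panels. Psmb10/Psmb7 lies between -0.46 and 0.29 with DMSO and between -1.56 and -0.87 with iBET, whereas in the other panels mice A and B lie below the other mice in every group.

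Groups that did not overlap were counted as well. This held for 5 of the 10 genes with Ova (H2-K1, H2-D1, Tap2, Nlrc5 and Psmb10), against 38.0% of all genes tested, and for 4 with IC (the same without H2-D1), against 42.8%. Whether the effect of iBET differed between Ova and IC was tested as an interaction. None of the 10 genes passed, against 0.0401% of all genes (edgeR, with 0 of the 10 genes at an unadjusted p under 0.05 and 0 by DESeq2). The largest interaction was that of Tap2, 0.16 (95% interval -0.05 to 0.37), and the widest interval was that of Psmb9, -0.60 to 0.67 on the log2 scale. With 5 mice, interactions of a size inside these intervals remain possible.

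The second comparison asks what IC did to these genes compared with Ova alone. With DMSO, 1 of the 10 genes passed, against 20.3% of all genes tested, and with iBET none passed, against 11.8% (edgeR, with 1 of the 10 genes at an unadjusted p under 0.05 and 0 by DESeq2 without a block). The gene that passed was B2m, whose levels with DMSO, given above, ranged from 904 to 1179.8 CPM with Ova and from 1179.9 to 1506 CPM with IC. All 5 mice were higher with IC, and the groups did not overlap by the narrowest of margins, with mouse E of the IC group beside mouse A of the Ova group (1 gene of 10, against 12.4% of all genes tested). With iBET no gene had groups apart, against 10.0% of all genes tested. The log2 fold change of B2m was 0.31 (SE 0.105, adjusted p = 0.0411) with DMSO and 0.27 (SE 0.105, adjusted p = 0.103) with iBET by edgeR, where mouse E differed least between Ova and IC. The call with DMSO was lost in 8 of 15 alternatives, among them the fits without mouse B (0.35, edgeR adjusted p = 0.0563), mouse C (0.26, edgeR adjusted p = 0.191), mouse D (0.28, edgeR adjusted p = 0.144) or mouse E (0.33, edgeR adjusted p = 0.0818).

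With the mouse as a block, 5 genes passed for IC against Ova with DMSO, where 38.1% of all genes passed in the same fit. B2m (0.31, edgeR adjusted p = 0.00113), Tapbp (0.18, edgeR adjusted p = 0.00451) and H2-D1 (0.17, edgeR adjusted p = 0.0276) were higher, and Nlrc5 (-0.26, edgeR adjusted p = 0.00464) and Tap1 (-0.19, edgeR adjusted p = 0.0184) were lower with IC. With iBET, 5 genes passed as well in the blocked fit, against 28.9% of all genes. B2m (0.27, edgeR adjusted p = 0.00577), Tapbp (0.19, edgeR adjusted p = 0.00557), Psmb10 (0.21, edgeR adjusted p = 0.0256) and H2-D1 (0.16, edgeR adjusted p = 0.0481) were higher and Nlrc5 (-0.24, edgeR adjusted p = 0.0121) was lower. B2m, Tapbp, H2-D1 and Nlrc5 are thus the genes that passed in both blocked comparisons. Scaling by library size alone moved the median log2 fold change of all genes from -0.02 to -0.13 with DMSO and from -0.01 to -0.12 with iBET, and B2m lay 0.34 above that median with DMSO under either scaling. It also moved the calls over all genes from 1196 higher and 1335 lower to 582 and 2593 with DMSO, and from 647 and 827 to 313 and 2030 with iBET. B2m, Tapbp, H2-D1, Nlrc5 and Tap1 kept their direction under TMM, DESeq2 size factors and library size alone. With DMSO, library size alone moved B2m from 0.31 to 0.21, Tapbp from 0.18 to 0.07, H2-D1 from 0.17 to 0.06, Tap1 from -0.19 to -0.30 and Nlrc5 from -0.27 to -0.38 on the log2 scale, about the shift of the median of all genes. Nlrc5 passed with DMSO under library size alone (edgeR adjusted p = 0.0287).

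**Figure D4:**
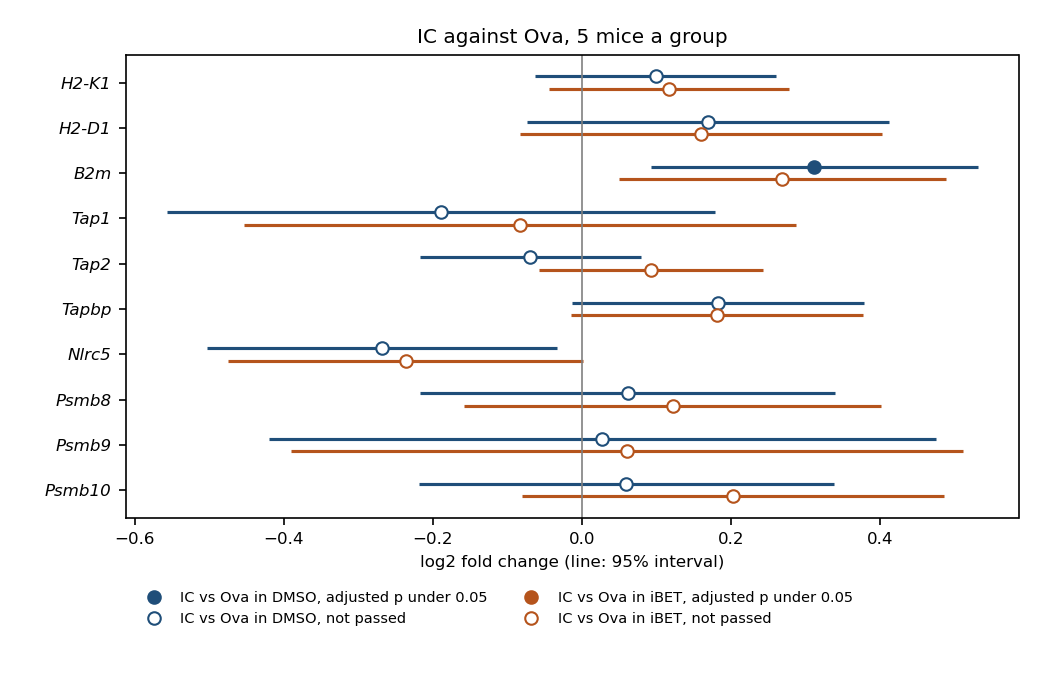
Log2 fold change of each class I presentation gene with IC against Ova, in DMSO (blue) and in iBET (orange), with 95% intervals from edgeR without a block and 5 mice a group. Filled points passed an adjusted p of 0.05, which of the 20 points B2m with DMSO alone did, and the values lie between -0.27 and 0.31.

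Mice differed for part of the pathway. Tap1, Nlrc5, Psmb8 and Psmb9 had their lowest levels in mice A and B in each of the 4 groups, which was the case for 7.91% of all genes tested. For Psmb9 the log2 CPM of mice A to E differed from the group means by -0.30, -0.48, 0.22, 0.35 and 0.22 on average over the 4 groups. For Tap1 these differences were -0.20, -0.41, 0.13, 0.31 and 0.17. Tap2, next to Psmb8 on the chromosome, differed little, between -0.10 and 0.10. H2-D1 was highest in mouse A (0.28) and lowest in mouse C (-0.14). No batch of mice is named in the labels or methods. The methods do state that batch effects were removed with the sva package, without saying what the batches were. What set mice A and B apart was not tested.

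**Figure D5:**
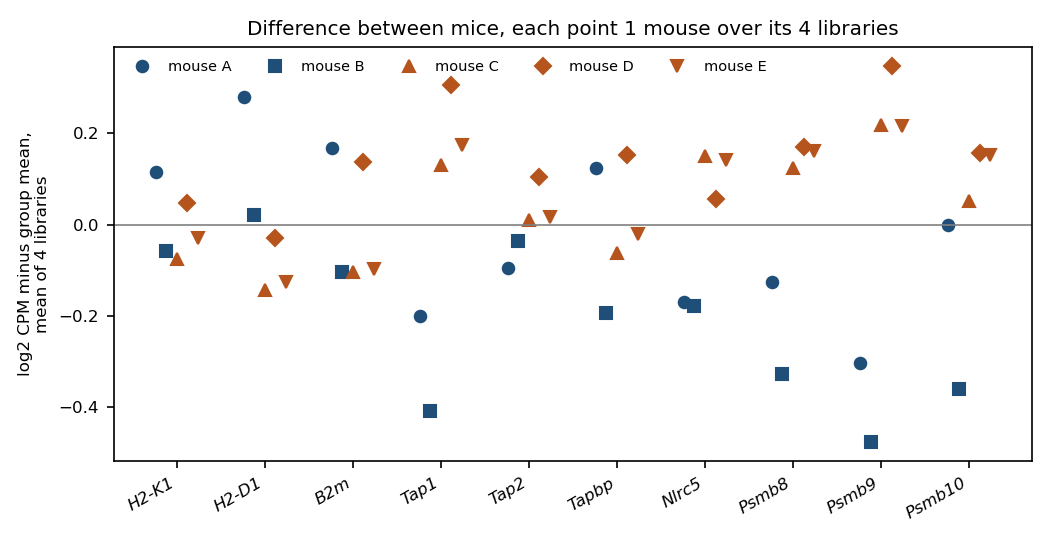
Difference of each mouse from the mean of its group in log2 CPM, averaged over its 4 libraries, for the 10 class I presentation genes (blue for mice A and B, orange for mice C, D and E). Mice A and B lie below 0 for Tap1, Nlrc5, Psmb8 and Psmb9. They are also below 0, in part narrowly, for Tap2 (-0.096 and -0.035) and Psmb10 (-0.001 and -0.36). The spread between mice is largest for Psmb9, from -0.48 to 0.35.

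The wider pathway was read from 6 lists of 58 genes, whose counts stand against the 56.6% (Ova) and 56.1% (IC) of all genes that passed with iBET. Of 16 tested class I and class I-like heavy chains beside H2-K1 and H2-D1, 2 rose and 5 fell with iBET in Ova, and 2 rose and 3 fell in IC (median log2 fold change -0.10 and 0.06), a smaller share than among all genes. Named after their values were seen, H2-Q4 rose under either stimulus, H2-Q10 in Ova and H2-Q1 in IC, and Hfe and Cd1d1 fell in Ova. The H2-Q genes are close copies of each other, and their values are uncertain where the counting could split reads between copies. The 3 with the smallest adjusted p fell under either stimulus. H2-M3, which presents formylated peptides, fell by 1.47 in Ova and by 1.42 in IC on the log2 scale (edgeR adjusted p = 2.71e-08 and 4.31e-08). Mr1, which presents vitamin B metabolites to MAIT cells, fell by 1.74 and by 1.44 (edgeR adjusted p = 4.44e-06 and 3.11e-05), and H2-T24 fell by 1.79 and by 1.29 from a mean of 5.61 CPM in DMSO Ova (edgeR adjusted p = 2.59e-06 and 1.22e-04).

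Of 8 tested genes of peptide loading and trimming in the endoplasmic reticulum, 3 rose and 1 fell with iBET in Ova, and 2 rose and 1 fell in IC (the additional one, Uggt1, was named after its values were seen). Calr, the chaperone calreticulin, rose from 564 ± 111 to 1070.4 ± 85.7 CPM in Ova (SD, n = 5), a log2 fold change of 0.92 (SE 0.106, adjusted p = 3.94e-07), and by 0.82 in IC (adjusted p = 1.91e-06, edgeR). Calr also rose with IC against Ova, by 0.54 with DMSO (edgeR adjusted p = 0.00147) and by 0.43 with iBET (edgeR adjusted p = 0.0119). Pdia3, the oxidoreductase of the loading complex, rose by 0.25 with iBET under either stimulus (edgeR adjusted p = 0.00933 and 0.00969). Tapbpl, the tapasin-related editor TAPBPR, fell by 1.63 in Ova and by 1.42 in IC on the log2 scale (edgeR adjusted p = 4.91e-09 and 2.88e-08), whereas tapasin itself did not pass.

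Of 8 tested constitutive catalytic subunits, activators and assembly factors of the proteasome, 3 rose and none fell with iBET in Ova, and 1 rose and 2 fell in IC. With IC against Ova, 5 of the 8 rose with DMSO and 3 with iBET, where 9.59% and 5.19% of all genes were higher. Psmb6 rose by 0.49 with DMSO (edgeR adjusted p = 0.000228) and by 0.25 with iBET (edgeR adjusted p = 0.0376). Psmb7 rose by 0.29 and 0.21 (edgeR adjusted p = 0.00118 and 0.0196), and the assembly chaperone Pomp by 0.35 and 0.21 (edgeR adjusted p = 0.000748 and 0.0346). Psmb5 and the activator gene Psme3 rose with DMSO, by 0.25 and 0.21 (edgeR adjusted p = 0.0405 and 0.00987). None of the 3 immunoproteasome genes passed for IC against Ova without the block. Psme4, another activator gene, rose with iBET by 0.23 and 0.29 (edgeR adjusted p = 0.0204 and 0.00412). Of 5 tested cytosolic peptidases, 2 rose and 1 fell with iBET in Ova, and 2 rose in IC. Tpp2 rose by 0.44 and 0.38 (edgeR adjusted p = 2.97e-06 and 1.87e-05), Thop1 rose by 0.65 and 0.56 (edgeR adjusted p = 1.55e-06 and 9.76e-06), and Blmh fell by 0.28 in Ova (edgeR adjusted p = 0.00559).

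Of 9 tested factors of the complex that assembles on MHC promoters, 3 rose and 4 fell with iBET under either stimulus. Named after their values were seen, Nfya, Rfxap and Creb1 rose and Nfyc fell. Rfx5, which binds the X box, fell by 1.37 in Ova and by 1.29 in IC on the log2 scale (edgeR adjusted p = 7.7e-08 and 1.72e-07). Ciita, the class II counterpart of Nlrc5, went from 43.8 ± 25.9 to 1.36 ± 0.668 CPM in Ova (SD, n = 5, log2 fold change -4.99 (SE 0.536, adjusted p = 1.57e-07), edgeR) and fell by 5.51 in IC (edgeR adjusted p = 6.68e-08). Atf1 fell by 0.70 and by 0.88 (edgeR adjusted p = 1.51e-06 and 6.85e-08). Of 8 tested interferon and NF-kB factors, none rose and 5 fell under either stimulus. Irf2 fell by 1.14 and by 0.99 (edgeR adjusted p = 1.21e-05 and 6.21e-05) and Irf1 by 0.37 and by 0.44 (edgeR adjusted p = 0.0128 and 0.00425). Irf9 fell by 0.51 under either stimulus (edgeR adjusted p = 0.000447 and 0.000435) and Rela by 0.54 and by 0.51 (edgeR adjusted p = 0.000327 and 0.000575). The medians of these 8 were -0.51 in Ova and -0.48 in IC.

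The genes whose log2 CPM over the 20 libraries was most like the mean standardized profile of the 10 genes were H2-DMa, an MHC class II peptide-loading gene, with a Pearson r of 0.937, Csrp1 with 0.927, Ube2l6, an enzyme of ISG15 conjugation, with 0.924, Brk1 with 0.908 and Ear6 with 0.903. These libraries share 4 groups and 5 mice, so r is a description. The 2 heavy chains themselves had an r of -0.22 (H2-K1) and -0.25 (H2-D1) with that mean profile, and Psmb8 had the highest of the 10 genes, 0.870.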

How the data were processed

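Libraries were made from total RNA with the SMARTer Pico kit and sequenced as read pairs of 150 bases. Per the labels, the authors used CASAVA, FastQC, Trim Galore, HISAT2 and featureCounts with the mm10 build and deposited raw counts per gene for 20 libraries. Versions, strand setting and treatment of multi-mapped reads are not given in the sources used here. The 10 genes, the pathway lists and the division into mice A, B and C, D, E were chosen with earlier results of these data known.

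Counts were fitted with edgeR 4.0.16 (R 4.3.3, filterByExpr, TMM, quasi-likelihood test, 4 groups, no block), with Benjamini-Hochberg adjustment over all 12465 genes and a threshold of 0.05. CPM are normalised by TMM, and CPM per kb uses exon length. Proteasome ratios were compared by exact 2-sided permutation over libraries. Libraries of 1 mouse came from the same animal, and their deviations from group means correlated (30 pairs, mean r 0.524, lowest 0.307, against -0.127 for 120 pairs of different mice), so the mouse pairs the samples. Pairs of replicates differed beyond sampling noise (chi-square per degree of freedom at least 12.5). Total counts of 16447491 to 29245150 limit precision for low genes.

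Named genes were the 10 genes, Psmb5, Psmb6, Psmb7, Irf1, Rfx5, Ciita, the 3 genes of each list with the smallest adjusted p for iBET, and the 5 genes most like the mean profile, and 1 gene that the rule names is not reported here. Alternatives were the mouse as a block, DESeq2 1.42.0 with and without the block, DESeq2 size factors, library size alone, no filter, 3 surrogate variables (sva 3.50.0), the compared libraries alone, each mouse left out, and mice A, B or C, D, E alone. Scripts were tested on simulated data.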

Additional observations from a re-analysis of the deposited data

Results flagged for a closer look

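Among 52 groups of 5 libraries tested for a value far from the others, 2 held one, and chance alone marks about 1 in 20 groups. Both concern the log2 ratio of Psmb10 to Psmb7. In the DMSO Ova group mouse D had 0.29 against -0.08 for its nearest neighbour, a gap of 0.765 of the whole range of the group. In the iBET Ova group mouse B had -1.56 against -1.04 for its nearest neighbour, a gap of 0.756 of the range.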

How the results depend on the processing

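The 898 values recomputed under the alternatives were compared with the reported ones. For iBET against DMSO the number of the 10 genes that passed stayed within 1.5 times of 7, except in mice A and B alone with IC, where it was 4. For IC against Ova it depended on the fit. With DMSO it was 5 with the mouse as a replicate block, 5 by DESeq2 with that block, 3 with surrogate variables, 3 in mice C, D and E alone, and 0 without the filter, with the compared libraries alone and in mice A and B alone, against 1 reported. It ranged from 0 to 1 with each mouse left out. With iBET it was 5 with the replicate block, 6 by DESeq2 with that block (Psmb8 in addition, 0.13, adjusted p = 0.0258) and 2 with surrogate variables, against 0 reported. The block changed no other call than those given beside the results. The cause was not tested.

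Psmb10/Psmb7 no longer passed with the replicate block (-1.03 with Ova and -0.78 with IC, by exact sign flips of 5 mice that cannot reach the threshold) or with a mouse left out (-1.09 to -0.94 with Ova and -0.81 to -0.75 with IC), where 4 libraries against 4 cannot reach it either.

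All reversals of sign were of values that had not passed. For iBET against DMSO, Tapbp was 0.040 in mice C, D and E alone with Ova (-0.059 to 0.033 with each mouse left out) and 0.048 in mice A and B alone with IC. For IC against Ova with DMSO, library size alone turned H2-K1 to -0.0076, Psmb8 to -0.048, Psmb9 to -0.080 and Psmb10 to -0.049, and surrogate variables turned Psmb8 to -0.012, Psmb9 to -0.073 and Psmb10 to -0.023. Psmb9 ranged from -0.020 to 0.069 with each mouse left out. Mice A and B alone gave -0.015 for H2-K1 and -0.19 for Psmb9, and mice C, D and E alone gave 0.014 for Tap2. With iBET, library size alone turned Tap2 to -0.015 and Psmb9 to -0.044, and surrogate variables turned Psmb9 to -0.034. The interaction of Tapbp was 0.0037 with the block, 0.0018 by DESeq2, 0.0058 by DESeq2 with the block, 0.0022 with DESeq2 size factors and 0.0013 with library size alone. With each mouse left out, the interactions ranged from -0.056 to 0.050 for Tapbp, from -0.050 to 0.099 for H2-K1, from -0.10 to 0.039 for H2-D1, from -0.12 to 0.011 for B2m, from -0.065 to 0.11 for Nlrc5 and from -0.016 to 0.12 for Psmb9. Mice A and B alone gave interactions of 0.13 for H2-D1, 0.20 for B2m, 0.13 for Tapbp and -0.24 for Nlrc5, and mice C, D and E alone gave -0.16 for H2-K1, -0.011 for Tap2, -0.0083 for Psmb8 and -0.069 for Psmb9. With each mouse left out, Psmb8/Psmb5 ranged from -0.045 to 0.041 and Psmb10/Psmb7 from -0.027 to 0.044 for IC against Ova with iBET, and Psmb9/Psmb6 from -0.091 to 0.014 for iBET with IC.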
